A study of Homo sapiens with 9 samples.

Results

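Cells make saturated fatty acids from acetyl-CoA and then lengthen and desaturate them. The genes described here are 10 genes of this route and its control by the transcription factor SREBP1, whose own gene is among them: ACLY, ACSS2, ACACA, FASN, ELOVL6, SCD, FADS1, FADS2, SREBF1 and THRSP. They were chosen by name, with earlier results of these data known, and each matched 1 of the 60880 Ensembl gene IDs counted in every library. Of the 10, 9 had enough counts for a test in every comparison.

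ACLY splits cytosolic citrate and ACSS2 activates acetate, and both yield acetyl-CoA. Acetyl-CoA carboxylase (ACACA) turns acetyl-CoA into malonyl-CoA, fatty acid synthase (FASN) builds palmitate from both, ELOVL6 lengthens palmitate, SCD places the first double bond, and FADS1 and FADS2 desaturate polyunsaturated fatty acids. The SREBP1 precursor is held in the endoplasmic reticulum by SCAP and INSIG proteins and is cut in the Golgi to release the active factor, so the level of SREBF1 RNA is not a measure of active SREBP1. Many carcinomas make fatty acids even where lipids are at hand.

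Poly-A RNA was sequenced from SNU5, an established human gastric carcinoma line grown in medium with 10% fetal bovine serum. The NR group received gold nanorods coated with polyethylene glycol and carrying ramucirumab (AuNR-PEG-Ab), the SP group received gold spheres with the same coating and antibody (AuSP-PEG-Ab), and the Ab group received ramucirumab alone, a monoclonal antibody against VEGFR2. All 3 groups were dosed at 8 μg/mL of ramucirumab for 24 h, with 3 libraries in each group and 9 in all, and no untreated library and no gold without antibody was analysed here. The effect of the particle and that of the antibody it carries therefore cannot be told apart. The labels give no culture or sequencing batch, so a difference of that kind between the groups could not be told apart from treatment either. NR libraries 1 to 3 held 25735410, 13863155 and 15943980 counts, the SP libraries held 21682836, 22914759 and 20601906, and the Ab libraries held 19566064, 26318227 and 21031024. The study calls the libraries of a group biological replicates. The labels do not name separate cultures, and p-values measure only the spread between these libraries.

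The labelled cell type was checked against its markers. The keratin KRT8 was the most abundant of 9 epithelial markers in all libraries, at 1846 to 2020 CPM in NR and SP and 642 to 678 CPM in Ab, where CPM are counts scaled by TMM to a common library total. The 9 markers summed to 2430 to 2594 CPM in NR and SP and to 955 to 1028 CPM in Ab, while KRT19 and CLDN3 were at 0 to 2 counts in every library. KDR, which encodes VEGFR2, had at most 1 count in any library. Markers of other cell types also differed between the groups at low levels. The 7 leukocyte markers summed to 5.49 to 8.01 CPM in NR and SP and to 1.31 to 2.13 CPM in Ab, with PTPRC and LYZ at 0 or 1 count. The 5 fibroblast markers, led by COL1A1, summed to 68.2 to 79.5 CPM in NR and SP and to 17.04 to 45.19 CPM in Ab, and the 3 matched endothelial markers, led by CDH5, to 20.7 to 23.9 CPM and 3.59 to 5.13 CPM. Of the fibroblast markers, DCN and PDGFRB passed as higher in both particle groups, whereas COL1A1, COL3A1 and COL1A2 did not pass, the last with log2 fold changes of -3.56 in NR and -1.81 in SP. The 4 adipocyte markers summed to at most 0.728 CPM in any library. Mitochondrial genes took 4.36% to 4.66% of the counts in NR and SP and 3.41% to 3.71% in Ab. The part of these differences in the results below was not tested. In bulk RNA, fewer cells of a type and less RNA per cell cannot be told apart.

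Libraries of a group did not lie evenly for these genes. SP1 was the lowest of the 3 SP libraries in 9 of the 9 tested genes, whereas it was the lowest in 37.9% of the 10763 genes with a mean of at least 100 counts. Its levels were below the mean of the other SP libraries by a median log2 ratio of -0.17, from -0.40 for SCD to -0.07. In SP against Ab without SP1, the log2 fold changes were 0.84 for ACLY, 0.42 for ACSS2, 1.07 for ACACA, 1.16 for FASN, 0.49 for ELOVL6, 0.30 for FADS2 and 0.60 for SREBF1, and all 7 kept an adjusted p under 0.05 with edgeR. SCD and FADS1 without SP1 are given with their values below. Ab1 was the highest of the 3 Ab libraries in 8 of the 9 genes, beside 46.8% of the 10763 genes, by a smaller median log2 ratio of 0.07. Leaving out Ab1 ended the call of SCD in SP and turned the sign of FADS1 in NR, which had not passed, and changed no other call or direction of the 9 genes against Ab.

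The promoters of 3 genes are shown because these genes move differently: ACLY and SCD were higher in both particle groups than in Ab, and FADS1 was not. Each run is the 250 bases before a RefSeq transcript start (GRCh38.p14), 5′ to 3′ on the strand of the gene, with matches to CCAAT on either strand in capitals. They lie at chr17:41919023-41919272 on the minus strand for ACLY, chr10:100346983-100347232 on the plus strand for SCD and chr11:61817004-61817253 on the minus strand for FADS1.
ACLY: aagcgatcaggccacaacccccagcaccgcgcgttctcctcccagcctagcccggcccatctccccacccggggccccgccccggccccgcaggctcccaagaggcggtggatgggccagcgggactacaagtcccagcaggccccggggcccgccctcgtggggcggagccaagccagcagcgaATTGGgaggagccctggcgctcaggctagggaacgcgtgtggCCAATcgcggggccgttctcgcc
SCD: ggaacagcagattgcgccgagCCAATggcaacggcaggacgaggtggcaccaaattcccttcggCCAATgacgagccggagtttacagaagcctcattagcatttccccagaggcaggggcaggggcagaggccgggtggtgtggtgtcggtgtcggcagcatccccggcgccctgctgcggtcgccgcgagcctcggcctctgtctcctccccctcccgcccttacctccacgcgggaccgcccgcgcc
FADS1: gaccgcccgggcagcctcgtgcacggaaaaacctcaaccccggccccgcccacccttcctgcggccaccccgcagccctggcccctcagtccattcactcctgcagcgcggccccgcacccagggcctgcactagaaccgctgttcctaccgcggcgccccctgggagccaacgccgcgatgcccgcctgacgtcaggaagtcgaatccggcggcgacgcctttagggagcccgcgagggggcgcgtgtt

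Counted from the start, ACLY held CCAAT at -65 on the strand opposite to the gene and at -23 on its own strand, SCD held it at -229 and -186 on its own strand, and FADS1 held none. The windows of SREBF1 and ELOVL6, which were higher in both particle groups, held no CCAAT either. Whether the motif goes with the change in level was not tested. RefSeq gave 14 such windows of 300 bases for 9 of the 10 genes, all but FASN, reaching 50 bases past the start. CCAAT, searched on both strands, was in 8 of the 14 windows and in 34.6% of 35116 human promoter windows of the same length. The GC box GGGCGG was in 11 of 14 windows and in 45.0% of all, FADS1 included. The sterol regulatory element, searched as TCACNCCAC on both strands, was in 0 of 14 and in 1.13% of all windows, and the E-box CACGTG was in 0 of 14 and in 7.26% of all. The windows are not separate promoters: ACACA has 3, and ACLY, FADS2 and ACSS2 have 2 each, of which those of ACLY and of FADS2 overlap, so that the same CCAAT matches of ACLY were counted in both of its windows. These counts describe only whether the letters stand in the window.

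Both particle groups had higher levels of most of the route than Ab. With edgeR's quasi-likelihood test and Benjamini-Hochberg adjustment over all genes, 8 of the 9 tested genes were higher in NR than in Ab (adjusted p at or under 0.05) and none was lower, where 36.4% of the 15009 genes tested passed as higher and 72.7% in either direction. In SP against Ab, 8 of 9 were higher and FADS1 was lower, where 36.4% of 15068 genes passed as higher, 36.6% as lower and 73.0% in either direction. The same 8 genes had all NR libraries above all Ab libraries, as did 37.1% of all genes, and all SP libraries above all Ab libraries, as did 37.4% of all genes, while FADS1 had all SP libraries below Ab, as did 37.8%. Without SP1 the same 8 passed as higher and FADS1 did not pass. The median log2 fold change of the 9 was 0.64 in NR and 0.46 in SP, beside -0.01 over all genes in both comparisons. FASN and ACACA were also past the study's 2-fold threshold in both, where 12.4% of genes in NR and 12.6% in SP were higher by that rule. The 3 Ab libraries serve both comparisons, which are therefore not independent of each other. The 10 genes together took 0.251% to 0.262% of the counts of NR libraries, 0.217% to 0.250% of SP libraries and 0.168% to 0.179% of Ab libraries.

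ACLY (chr17:40023170-40086795, GRCh37, minus strand) was at 220, 225 and 232 CPM in NR 1 to 3, at 210, 225 and 216 CPM in SP and at 127, 118 and 124 CPM in Ab. All particle libraries were above all Ab libraries, and the NR and SP ranges overlapped. Its log2 fold change was 0.88 ± 0.05 (SE, edgeR adjusted p = 6.04e-16, n = 3 against 3) in NR and 0.83 ± 0.05 (adjusted p = 1.30e-14) in SP.

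ACSS2 (chr20:33459949-33515765, plus strand) was at 90.8, 90.2 and 86.1 CPM in NR, at 73.7, 81.9 and 85.0 CPM in SP and at 66.9, 59.7 and 60.9 CPM in Ab. The 3 groups did not overlap, with SP between the others. The log2 fold change against Ab was 0.52 ± 0.06 (edgeR adjusted p = 3.14e-09) in NR and 0.37 ± 0.06 (adjusted p = 9.89e-06) in SP.

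The genes of the committed steps showed the largest differences among the 9 tested. ACACA (chr17:35441927-35766927, minus strand) was at 194, 206 and 209 CPM in NR, at 180, 211 and 205 CPM in SP and at 101, 100 and 97.3 CPM in Ab. Every particle library was above every Ab library, at 2.05-fold (log2 1.03 ± 0.05, edgeR adjusted p = 2.45e-17) in NR and 2.01-fold (log2 1.01 ± 0.06, adjusted p = 3.04e-15) in SP, so ACACA sat at the edge of the 2-fold threshold. In SP it was under it, at log2 values of 0.95, 0.996 and 0.99, when SP2, SP3 or Ab3 was left out, and above it, at 1.07, without SP1. FASN (chr17:80036214-80056170, minus strand) was at 496, 525 and 521 CPM in NR, at 473, 519 and 502 CPM in SP and at 243, 223 and 221 CPM in Ab. The highest Ab library was thus below every particle library by a wide margin, while NR and SP overlapped. FASN rose 2.25-fold (log2 1.17 ± 0.05, edgeR adjusted p = 4.47e-19) in NR and 2.19-fold (log2 1.13 ± 0.05, adjusted p = 8.39e-18) in SP.

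ELOVL6 (chr4:110967002-111120355, minus strand), the elongase that takes palmitate to stearate, was at 39.0, 41.1 and 38.9 CPM in NR, at 36.5, 39.8 and 40.2 CPM in SP and at 26.3, 29.9 and 28.9 CPM in Ab. No particle library overlapped Ab, and NR and SP overlapped each other. The log2 fold change was 0.48 ± 0.07 (edgeR adjusted p = 6.10e-07) in NR and 0.46 ± 0.07 (adjusted p = 2.22e-06) in SP.

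SCD (chr10:102106990-102124583, plus strand), the stearoyl-CoA desaturase, was at 553, 583 and 583 CPM in NR, at 395, 524 and 515 CPM in SP and at 376, 370 and 358 CPM in Ab. SP1, at 395 CPM, lay near the highest Ab library, and the other SP libraries lay nearer to NR. SCD rose by a log2 of 0.64 ± 0.04 (edgeR adjusted p = 6.55e-14) in NR and by 0.39 ± 0.12 (adjusted p = 0.0317) in SP. Without SP1 the SP value was 0.50 ± 0.04 (adjusted p = 6.17e-09). With SP1 kept and any one of the other 5 libraries left out it kept a similar size, 0.31 to 0.40, with SEs of 0.11 to 0.17, and was no longer past the threshold, with edgeR adjusted p = 0.0573 without SP2, 0.0618 without SP3, 0.118 without Ab1, 0.110 without Ab2 and 0.0735 without Ab3.

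The FADS genes lie next to each other on chromosome 11, and their annotated spans overlap on opposite strands. FADS1 (chr11:61567099-61596790, minus strand), the delta-5 desaturase, was at 659, 683 and 694 CPM in NR, at 576, 640 and 658 CPM in SP and at 705, 676 and 671 CPM in Ab. NR and Ab overlapped, with a log2 fold change of -0.01 (95% interval -0.09 to 0.08, edgeR adjusted p = 0.874), and all SP libraries were below all Ab libraries. FADS1 fell by 0.12 on the log2 scale in SP (SE 0.05, edgeR adjusted p = 0.0227), and without SP1 the value was -0.07 (adjusted p = 0.124). DESeq2 gave -0.11 (adjusted p = 0.0560) with all libraries.

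FADS2 (chr11:61560452-61634826, plus strand), the delta-6 desaturase, was at 55.8, 51.0 and 56.4 CPM in NR, at 50.5, 56.2 and 51.5 CPM in SP and at 49.1, 42.9 and 39.6 CPM in Ab. The groups did not overlap with Ab, though Ab1 came close to the lowest SP library. The log2 fold change was 0.32 ± 0.07 (edgeR adjusted p = 0.000235) in NR and 0.28 ± 0.07 (adjusted p = 0.00133) in SP. Of the annotated exon bases, 5.57% of FADS1 and 5.11% of FADS2 are shared with another gene, and it was not stated whether the counting used strand.

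SREBF1 (chr17:17713713-17740316, minus strand), the gene of SREBP1, was at 185 CPM in each NR library, at 153, 173 and 173 CPM in SP and at 122, 111 and 111 CPM in Ab. The 3 groups did not overlap, and the order was NR, SP, Ab. It rose by a log2 of 0.69 ± 0.05 (edgeR adjusted p = 2.57e-13) in NR and 0.54 ± 0.06 (adjusted p = 1.61e-09) in SP. Counts per gene do not separate the SREBP1 isoforms, and 6.75% of the exon bases of SREBF1 are shared with another gene. THRSP (chr11:77774907-77779397, plus strand), a lipogenic regulator of liver and fat, had 1 count in NR1, 1 count in Ab2 and 0 counts in the other libraries, at or under the floor of 3 counts (0.114 to 0.216 CPM), so no fold is given.

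**Figure D1:**
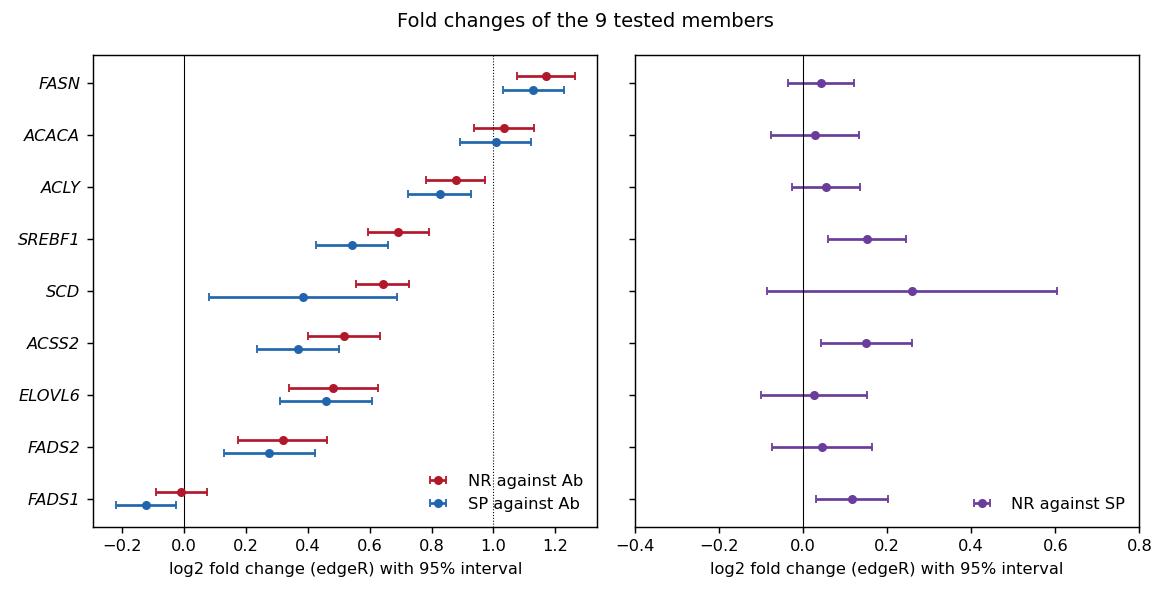
Log2 fold change of each tested gene (points) with its 95% interval (bars) from edgeR, for NR (red) and SP (blue) against Ab on the left and for NR against SP on the right; the dotted line marks 2-fold. FASN and ACACA lie at or past 2-fold in both particle groups, FADS1 lies at 0 in NR, and the SCD interval is the widest wherever SP enters.

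Rods and spheres were compared directly. None of the 9 genes passed in NR against SP with edgeR, where 66 of 14903 genes passed (0.443%). At an unadjusted p under 0.05, 3 of the 9 did, SREBF1, ACSS2 and FADS1, where 12.9% of all genes did. SREBF1 was higher in NR by a log2 of 0.15 (95% interval 0.06 to 0.24, edgeR adjusted p = 0.113), ACSS2 by 0.15 (0.04 to 0.26, adjusted p = 0.202) and FADS1 by 0.12 (0.03 to 0.20, adjusted p = 0.208). All NR libraries were above all SP libraries in 4 genes, ACSS2, SCD, FADS1 and SREBF1, and in 8.98% of all genes tested. SCD differed by 0.26 (95% interval -0.09 to 0.60, edgeR adjusted p = 0.503), an interval that reaches 1.5-fold. FASN, with 0.04 (-0.04 to 0.12, adjusted p = 0.692), and ACACA, with 0.03 (-0.08 to 0.13, adjusted p = 0.865), had narrower intervals. Without SP1 the differences were 0.14 for SCD (adjusted p = 0.151), 0.10 for SREBF1 (adjusted p = 0.412), 0.10 for ACSS2 (adjusted p = 0.559), 0.06 for FADS1 (adjusted p = 0.596) and 0.01 for FASN (adjusted p = 0.968).

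Levels were set between genes only per length, as CPM per kilobase of exon (RPKM). The length is that of all annotated exons of a gene merged, from 5208 bases for ACLY to 13016 bases for ACACA, not that of the expressed transcript. The order of genes therefore depends on the annotation, whereas a gene's difference between groups does not. In NR the order was SCD at 109 ± 3.28 RPKM (SD, n = 3), FADS1 at 66.4 ± 1.71, FASN at 55.1 ± 1.66, ACLY at 43.3 ± 1.20, SREBF1 at 22.5 ± 0.02, ACSS2 at 16.97 ± 0.49, ACACA at 15.6 ± 0.62, ELOVL6 at 5.45 ± 0.17 and FADS2 at 5.15 ± 0.28. The ranges of neighbours in that order did not overlap, though the lowest ELOVL6 library, at 5.347 RPKM, lay just above the highest FADS2 library, at 5.345 RPKM. The order was the same in SP, where ACSS2 at 15.3 ± 1.10 RPKM overlapped ACACA at 15.3 ± 1.28 and ELOVL6 at 5.34 ± 0.28 overlapped FADS2 at 4.997 ± 0.29. In Ab, SCD at 70.1 ± 1.66 RPKM overlapped FADS1 at 66.9 ± 1.82, FASN at 24.6 ± 1.27 overlapped ACLY at 23.6 ± 0.86, and FADS2 at 4.16 ± 0.46 overlapped ELOVL6 at 3.90 ± 0.26. FADS1 was at 2.72 times the RPKM of FASN in Ab and at 1.20 times in NR.

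**Figure D2:**
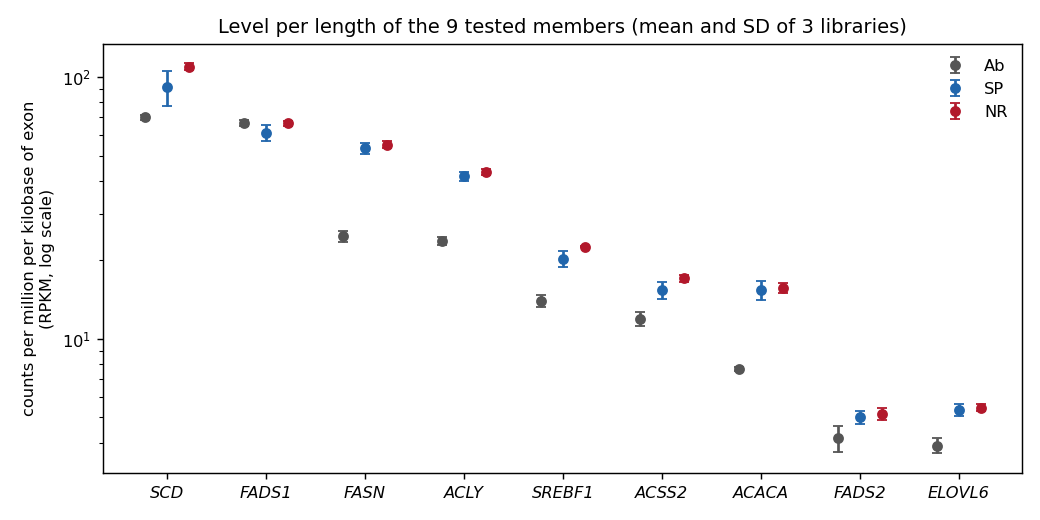
RPKM (log scale) of the 9 tested genes, as mean and SD of the 3 Ab (grey), SP (blue) and NR (red) libraries. SCD and FADS1 lead in every group, FASN and ACLY are close together in Ab, and the groups differ far less in FADS1 than in FASN.

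The balance of desaturation to synthesis RNA also differed. The ratio of SCD to FASN RPKM was 1.98 ± 0.01 (SD, n = 3) in NR, 1.70 ± 0.19 in SP and 2.86 ± 0.10 in Ab, since FASN differed more than SCD. The ratio of FADS1 to FADS2 was 12.9 in NR, 12.2 in SP and 16.2 in Ab. The ratio of FASN to ACACA was 3.53, 3.51 and 3.22. These ratios are given as descriptions, with no test, and their size within a group depends on the same exon lengths.

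Across the 9 libraries, FASN, ACACA and ACLY followed each other closely on the log2(CPM + 1) scale, with Pearson's r of 0.995 to 0.998, and FADS1 followed none of them (r of -0.34 to -0.31). SCD was nearest to ACSS2 (r = 0.952) and SREBF1 (r = 0.947), and SREBF1 to ACSS2 (r = 0.988). The libraries share their group, so these values mostly restate the difference from Ab: 29.4% of 10763 genes had r above 0.9 with FASN, 24.9% with SREBF1 and 2.73% with SCD. Among the genes most like FASN were SPR (r = 0.999) and NEURL1B (r = 0.999), and those most like SCD were EFNA1 (r = 0.977), TMPO and KCNQ1, followed by INSIG1 (r = 0.968).

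The genes around the route were taken as lists, also chosen with earlier results of these data known. Their counts stand beside the shares over all genes: 36.4% passed as higher in either particle group, and 36.4% (NR) or 36.6% (SP) passed as lower. Of 10 tested genes that supply acetyl-CoA, malonyl-CoA or NADPH, 9 were higher than Ab and none lower in each particle group, with medians of 0.72 for NR and 0.73 for SP on the log2 scale. IDH1 did not pass, at 0.09 and -0.02. SLC25A1, the carrier that exports citrate from mitochondria, was at 154, 169 and 166 CPM in NR, at 154, 146 and 147 CPM in SP and at 47.6, 44.1 and 43.6 CPM in Ab. All its particle libraries were above all Ab libraries, with a log2 fold change of 1.86 ± 0.05 (edgeR adjusted p = 8.39e-22) in NR and 1.74 ± 0.06 (adjusted p = 2.36e-20) in SP. ACACB, the carboxylase at the mitochondrial membrane, rose by 1.56 and 1.64.

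Of 12 tested genes of elongation and other desaturases, 7 were higher and 4 lower in each particle group, and 7 higher and 5 lower in SP without SP1. ELOVL5, which lengthens polyunsaturated fatty acids, rose by a log2 of 1.07 in NR and 0.99 in SP and was at 282 to 317 CPM in particle libraries against 144 to 157 CPM in Ab. TECR, the last enzyme of the elongation cycle, rose by 1.09 and 1.06. FADS3, the neighbour of FADS1 and FADS2, fell by 0.99 in NR and by 0.94 in SP, and all its particle libraries (93.2 to 105 CPM) were below all Ab libraries (184 to 198 CPM). Of 17 tested genes of fatty acid activation and glycerolipid synthesis, 11 were higher and 4 lower in NR, where 72.7% of all genes passed. In SP, where 73.0% of all genes passed, 9 of the 17 were higher and 2 lower. Without SP1, 11 were higher and 3 lower in SP, so that 82.4% passed, beside 69.1% of all genes. The acyl-CoA synthetase ACSL1 rose by 1.37 and 1.31, DGAT2, which makes triglycerides, by 2.09 and 2.102, and AGPAT2, an acyltransferase of phosphatidic acid synthesis, fell by 0.78 and 0.77.

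The regulators were close to all genes in their counts. Of 16 tested, 5 were higher and 6 lower in NR, and 5 were higher and 7 lower in SP, with median log2 fold changes of -0.12 and -0.14. MLXIPL, which encodes the carbohydrate-responsive factor ChREBP, was at 4.14, 4.37 and 6.23 CPM in NR, at 4.62, 5.26 and 5.94 CPM in SP and at 41.5, 38.9 and 41.4 CPM in Ab. It was the regulator with the largest difference, at a log2 of -3.06 ± 0.11 (edgeR adjusted p = 1.03e-19) in NR and -2.94 ± 0.10 (adjusted p = 1.90e-20) in SP. MID1IP1, a partner of acetyl-CoA carboxylase related to THRSP, was lower, at log2 fold changes of -0.998 and -1.002. INSIG1, a target of SREBPs whose protein retains their precursors when sterols are plentiful, was at 156, 159 and 152 CPM in NR, at 102, 136 and 143 CPM in SP and at 69.8, 69.1 and 68.2 CPM in Ab. SP1 was again the lowest SP library. INSIG1 rose by 1.18 ± 0.05 (edgeR adjusted p = 2.04e-18) in NR and by 0.89 ± 0.13 (adjusted p = 0.00101) in SP, or 1.02 ± 0.05 (adjusted p = 1.00e-11) without SP1. SREBF2, the gene of the sterol-regulating SREBP2, rose by 0.61 and 0.57, SCAP fell by 0.23 and by 0.18, and MBTPS1, USF1, INSIG2 and PRKAA2 passed in neither.

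Of the separate mitochondrial fatty acid synthesis route, 3 of 8 tested genes were higher and 2 lower in each particle group. Over all genes, 36.4% were higher and 36.4% to 36.6% lower. The log2 medians of the 8 were 0.06 in NR and 0.13 in SP. Without SP1, 4 were higher and 2 lower in SP. The malonyl transferase MCAT rose by a log2 of 0.56 in each, and the lipoate synthase LIAS fell by 0.56 in NR and by 0.47 in SP.

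The cholesterol route, which is driven mainly by SREBP2, was set beside the fatty acid route. Of 22 tested genes, 20 were higher and 1 was lower in each particle group, beside 36.4% higher over all genes, with medians of 1.20 for NR and 0.97 for SP on the log2 scale, against 0.64 and 0.46 for the 9 fatty acid genes. MSMO1, a sterol oxidase of cholesterol synthesis, rose by 2.15 in NR and 1.87 in SP. The summed cholesterol list was at 3032, 3022 and 3126 CPM in NR, at 2503, 2871 and 2876 CPM in SP and at 1416, 1345 and 1338 CPM in Ab, so SP1 was the lowest SP library here too. Without SP1 the counts in SP against Ab were the same and the median was 1.04. In NR against SP, 3 of the 22 passed beside 0.443% over all genes, all higher in NR, with log2 fold changes of 0.25 for FDPS (edgeR adjusted p = 0.0174), 0.28 for LSS (adjusted p = 0.0210) and 0.28 for MSMO1 (adjusted p = 0.0186). SP1 was the lowest of the 6 NR and SP libraries for all 3 genes, and without it none of the 22 passed with edgeR, at 0.20 for FDPS (adjusted p = 0.104), 0.22 for LSS (adjusted p = 0.122) and 0.21 for MSMO1 (adjusted p = 0.104), where 0.0726% of all genes passed.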

How the data were processed

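The authors removed adapter and low-quality reads, aligned the rest and counted reads per gene, and the deposited values are whole, unscaled counts per Ensembl gene ID. The study names Hisat2 and, in its reporting summary, the human genome hg19. The submitters' processing notes name HISAT2 2.1.0, DESeq2 1.16.1 and the mouse build mm9, but the IDs are human. The counter is named differently in separate places of the study, and the annotation release and use of strand were not given in the sources used here, so genes that overlap others are uncertain. GENCODE 44 on GRCh37 named 59858 of 60880 IDs and gave positions and exon lengths.

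Groups were compared 2 at a time, over the 6 libraries involved, in R 4.3.3 with edgeR 4.0.16 (filterByExpr with minimum count 10 and minimum total count 15, TMM, robust quasi-likelihood test, Benjamini-Hochberg adjustment over all genes tested). A gene passed where its adjusted p did not exceed 0.05, and the 2-fold threshold follows the study's definition. SEs and 95% intervals come from the same test. In simulated counts with 200 changed genes, 92% of those changed by a log2 of 1.5 were recovered for NR against Ab, 96.5% for SP against Ab and 95% for NR against SP, and 4.66%, 6.31% and 4.04% of the calls were false. Against Ab, however, 72.7% (NR) and 73.0% (SP) of the genes tested passed, and the largest log2 fold change of the 9 genes was 1.17. The simulated rates therefore do not cover smaller changes or data in which most genes differ. A floor of 3 counts covers counting error only. Between replicate libraries the chi-square per gene was 1.84 to 7.43, so none was counted as a repeat of the same library. Whether they came from separate cultures cannot be read from these values.

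The 10 genes, the lists around them and the tests were chosen with earlier results of these data known. All 10 are named. Of each list, at most the 5 genes with the smallest adjusted p in NR against Ab among those averaging 100 counts or more in the higher group are named, and any of the regulators. IDH1, FDPS, LSS, ANGPTL4, PLIN2, APOE and COL1A2 were named after their values were seen, and some single genes of the lists are not reported here. Genes most like FASN, SCD and SREBF1 were ranked by Pearson's r over the 9 libraries among genes averaging 100 counts or more. The alternatives were DESeq2 1.42.0, RLE scaling, library totals, no filter, at least 10 counts in every library, a joint fit of all 9 libraries, blocking on the replicate number, a fold minimum of 1.5 or none, and each library left out. Python 3.11.15, numpy 2.4.6, pandas 2.3.3 and matplotlib 3.10.9 were used for tables and figures. No sequencing batch was given in the sources used here.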

Additional observations from a re-analysis of the deposited data

How the results depend on the processing

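Over the 9 tested genes and 13 other settings, 114 values kept their direction and side of the threshold and 3 did not in NR against Ab, 108 did and 9 did not in SP against Ab, and 115 did and 2 did not in NR against SP. FADS1 in NR against Ab turned from -0.0077 to 0.0187 with library totals, and ranged from -0.0269 to 0.0104 as libraries were left out (0.00499 without NR1, 0.0104 without Ab1). In NR against SP, ACACA ranged from -0.0370 (without SP1) to 0.0784 and ELOVL6 from -0.0159 (without SP1) to 0.0512 as libraries were left out. The 9 calls lost in SP against Ab were of SCD and FADS1, the last also with library totals (adjusted p = 0.0646). Libraries with the same number did not deviate together more than others (r of -0.11 to 0.04, beside -0.07 to 0.12 for different numbers). The main tests therefore did not pair them, though a weak pairing could be missed here. With the replicate number as a block, SCD in SP against Ab was 0.38 (edgeR adjusted p = 0.0598) and no other call of the 9 genes changed.

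Of the 9 genes, 2 were past the 2-fold threshold in each comparison with Ab. With a minimum of 1.5-fold 5 were called in NR and 3 in SP, and with no minimum 8 in NR and 9 in SP. In SP against Ab 1 was called with at least 10 counts in every library and with all 9 libraries in one fit, and 1 to 2 as libraries were left out. Over all genes, 10916 and 11002 passed with no fold minimum and 6348 and 6385 with 1.5-fold, in NR and SP against Ab. In NR against SP the 3 called genes became 0 with DESeq2, 27 without a filter, 66 with no fold minimum, 5 with 1.5-fold, and 0 to 28 as libraries were left out (28 without NR1, 0 without NR2, 1 without SP1 and 5 without SP3). With the block, 3414 genes were called in NR against Ab, 3493 in SP against Ab and 4 in NR against SP. NR2, at 13863155 counts, was the shallowest library.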

Other observations

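Genes that burn fatty acids were higher together with those that make them. Of 17 tested genes of fatty acid oxidation and PPAR targets, 15 were higher than Ab and 2 were lower in each particle group, beside 36.4% higher and 36.4% to 36.6% lower over all genes, with log2 medians of 0.95 for NR and 0.996 for SP. HADHA, a subunit of the mitochondrial trifunctional protein, was at 376, 385 and 373 CPM in NR, at 384, 369 and 391 CPM in SP and at 176, 170 and 175 CPM in Ab, and rose by 1.13 ± 0.04 (SE, edgeR adjusted p = 2.83e-19) in NR and 1.14 ± 0.04 (adjusted p = 1.29e-18) in SP. ECHS1, the enoyl-CoA hydratase of the same cycle, rose by 1.27 and 1.246. The genes that fell were PLIN2, a coat protein of lipid droplets, at 36.8 to 40.7 CPM in particle libraries and 70.1 to 75.8 CPM in Ab, and ANGPTL4, a secreted inhibitor of lipoprotein lipase.

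Of 6 tested targets of the liver X receptors, which also act on SREBF1, 4 were higher in each particle group, beside 36.4% over all genes. ABCA1, the cholesterol exporter, rose by a log2 of 1.81 ± 0.20 (edgeR adjusted p = 3.33e-09) in NR and 2.06 ± 0.18 (adjusted p = 7.18e-11) in SP, at 5.80 to 9.35 CPM against 1.55 to 2.53 CPM in Ab. ABCG1 passed in neither, at -0.17 in NR and -0.32 in SP (-0.12 without SP1), and APOE, at under 2 CPM everywhere, was lower. The collagen gene COL1A2 differed within groups, with 37, 0 and 0 counts in NR 1 to 3, 49, 49 and 43 in SP and 198, 278 and 33 in Ab.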
